A study of Mus musculus with 4 samples.

Results

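The lysosome is acidified by the vacuolar ATPase (V-ATPase) and degrades what a cell engulfs with acid hydrolases, inside a membrane of heavily glycosylated proteins. Its genes were followed in dendritic cells sorted from mouse spleen, in 2 KO and 2 WT libraries. The set was 41 gene symbols chosen by function, with earlier results of these data known. It held 15 V-ATPase subunits and accessory proteins and 6 proteins of the lysosomal membrane and of lipid export. The rest were 18 hydrolases and their cofactors, and the transcription factors Tfeb and Mitf. Cathepsins were not included. Of the 41 symbols, 40 matched a row among the 17300 genes of the table, and all 40 lay above the limit on low values (a mean over the table minimum by 1 log2 unit or more); Atp6v0d2 was not analysed here.

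The KO group is labelled EKO in the sample titles and KO as genotype, and the other group WT. The series title names Siglec-E, an inhibitory receptor for sialic acid on myeloid cells, in antigen-presenting cells and transplant rejection, so the comparison asks what differs in splenic dendritic cells of the KO genotype. Strain, age, sex, how the allele was made and whether replicates were separate animals were not given in the sources used here. Column names of both groups begin with Allo, which is not explained, so any treatment that all 4 libraries share is not known. The KO columns carry other numbers than the KO titles, so those libraries are named by letter here; values of a gene are always in the order KO A, KO B, then WT 1, WT 2. Each p-value therefore covers only the variation among these 4 samples, which could be technical.

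Values are the authors' log2-scale values with a shared lowest value of 8.04. Approximate read counts obtained from them by undoing the transform, called normalized counts below, summed to between 29002408 and 30952251 a library after the authors' scaling. Siglece had KO values of 8.92 and 8.96 and WT values of 10.38 and 10.14, a fall by 1.32 (SE 0.107, adjusted p = 0.0138). KO A stood apart in the Y-linked genes: Ddx3y was at 8.74 there and between 11.82 and 12.13 in the other 3 libraries. Genes were tested with limma at an adjusted p of 0.05 over 11864 genes.

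Dendritic cells use the lysosome to cut antigen into peptides for MHC class II, and are known to hold its acidity and protease activity lower than macrophages do. The V-ATPase has a cytosolic V1 sector that splits ATP and a membrane V0 sector that carries protons inward. TFEB, MITF and their relatives bind a CACGTG-containing element, known as the CLEAR element, in promoters of many lysosomal genes. That element is shown here because it is what a large share of these genes is known to have in common. RefSeq promoter windows (build GRCm38.p6, 250 bases before to 50 after a start) matched 35 of the 41 symbols. CACGTG, which reads the same on both strands, was found in 11 of the 35 (31.4%), against 8.09% of the 27025 genes with a window. The longer TCACGTG, searched on both strands and always containing CACGTG, was in the same 11 genes (31.4%, against 4.29% of all), and GTCACGTG, which contains both, in 8 (22.9%, against 2.55%). These 11 genes were Atp6v0b, Atp6v0d1, Atp6v0e, Atp6v1a, Lamp1, Mcoln1, Gaa, Gla, Glb1, Naglu and Arsa.

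Stretches upstream of the start are printed for 5 genes that hold the element and span the range of differences, and for Lipa, which fell and has no CACGTG in its window. Capitals mark CACGTG with a T directly before it or an A directly after it. The Gla stretch is chrX:134601164-134601255, minus strand. The others are chr8:3500418-3500509, plus strand (Mcoln1), chr8:13159070-13159160, plus strand (Lamp1), chr16:44139355-44139420, minus strand (Atp6v1a), chr4:117887330-117887395, minus strand (Atp6v0b) and chr19:34527475-34527554, minus strand (Lipa).
Gla: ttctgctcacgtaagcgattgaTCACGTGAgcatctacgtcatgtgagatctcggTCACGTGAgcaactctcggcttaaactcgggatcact
Mcoln1: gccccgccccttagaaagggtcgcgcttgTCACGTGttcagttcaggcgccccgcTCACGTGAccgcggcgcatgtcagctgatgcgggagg
Lamp1: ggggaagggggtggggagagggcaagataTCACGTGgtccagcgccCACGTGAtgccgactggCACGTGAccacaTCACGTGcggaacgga
Atp6v1a: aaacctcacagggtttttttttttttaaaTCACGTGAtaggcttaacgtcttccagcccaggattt
Atp6v0b: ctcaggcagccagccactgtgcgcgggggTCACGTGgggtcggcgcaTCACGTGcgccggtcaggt
Lipa: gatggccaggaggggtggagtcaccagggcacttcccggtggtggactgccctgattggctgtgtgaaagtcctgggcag

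The Lamp1 stretch holds 4 matches and the Gla, Mcoln1 and Atp6v0b stretches 2 each. The differences of genes with and without the element overlapped. The 11 genes with it ran from -0.16 to 1.17 with a median of 0.12, and 6 of them were above 0. The 24 with a window but without TCACGTG ran from -0.40 to 0.41 with a median of 0.045, and 15 were above 0.

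Most of the 40 lysosomal genes showed small differences between KO and WT, and the largest, 1.17 for Gla, missed the threshold. Lipa and Asah1, both hydrolases of lipids, were lower in KO, and 0 of the 40 tested genes passed as higher. Most of the 14 V-ATPase genes of the set lay above their WT values and most of its hydrolases below, but apart from Lipa and Asah1 each single difference missed the threshold. Of the 12 V-ATPase genes tested outside the set, 8 lay below 0. The 2 lower genes are 5.0% of 40, and 6.93% of all genes tested passed, 4.69% higher and 2.23% lower. Over all genes 557 were higher and 265 lower, or 366 and 282 with quantile normalization. At an unadjusted p under 0.05, 6 of the 40 (15.0%) were higher and 5 (12.5%) lower, near the 14.2% and 10.5% of all genes tested. The median difference over the 40 genes was 0.045 on the log2 scale, and over all genes tested it was -0.0017. The median of the 40 was 0.012 without KO A and 0.11 without KO B. In bulk RNA, fewer cells of a type and less RNA per cell cannot be told apart. Arsa, Arsb, Atp6v0b, Atp6v1e1, Atp6v1h, Grn, Hexa, Idua, Lamp1 and Npc1 share exonic bases with a gene on the opposite strand, and whether the counting used strand is not stated.

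**Figure D1:**
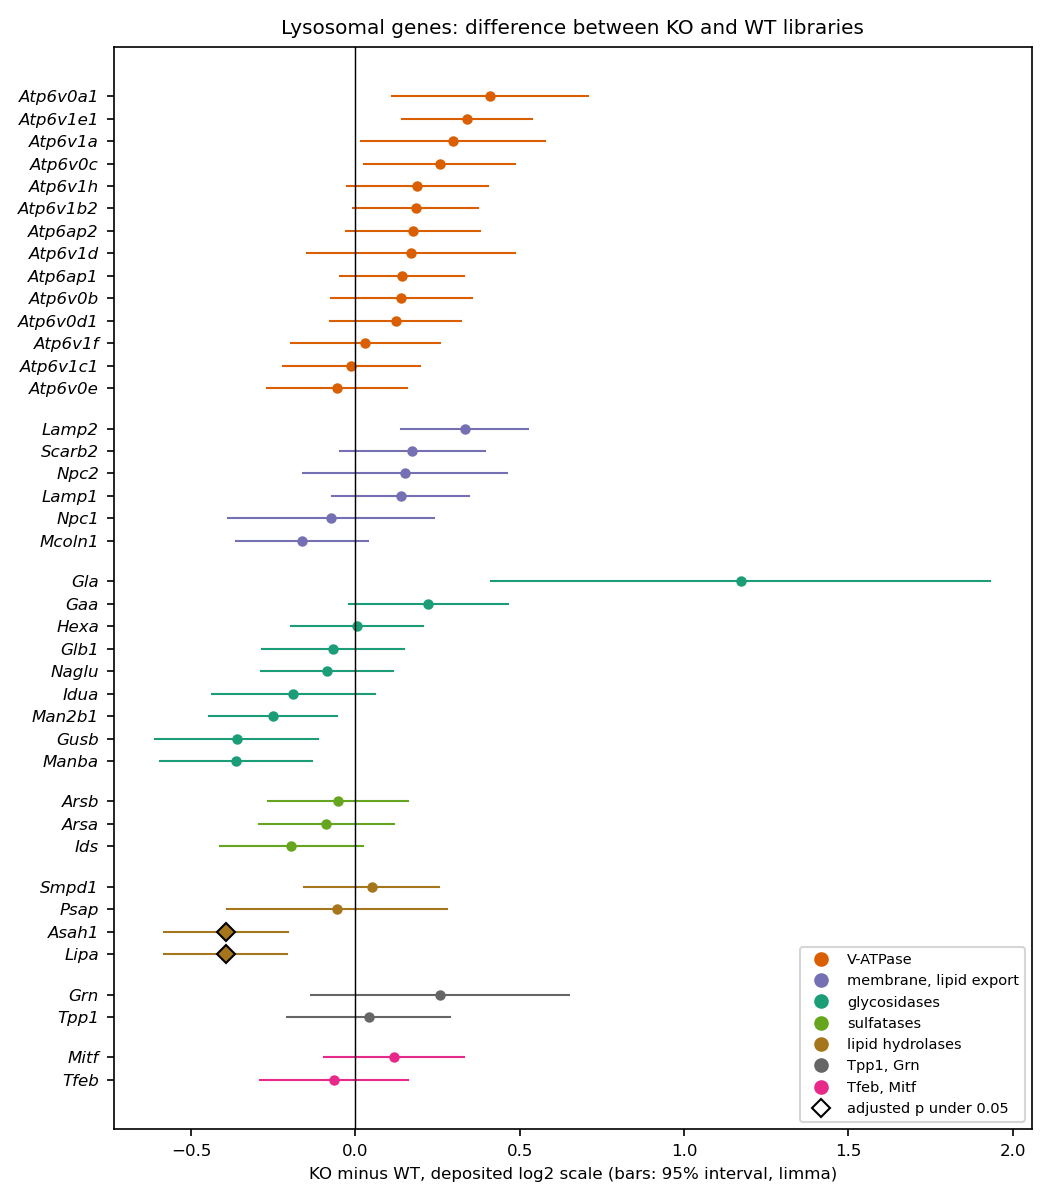
Difference of KO from WT for each of the 40 lysosomal genes on the deposited log2 scale, with 95% intervals from limma; diamonds mark an adjusted p under 0.05. Of the 14 V-ATPase genes 12 lie to the right of 0, Lipa and Asah1 lie near -0.40 and -0.39, and Gla, at 1.17, has the widest interval.

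Of the 14 V-ATPase genes tested, 0 passed in either direction, and 12 had a difference above 0 and 2 below. At an unadjusted p under 0.05, 4 (28.6%) were higher and 0 lower, against 14.2% and 10.5% of all genes tested. The median of the 14 was 0.17, and it was 0.18 for KO A and 0.16 for KO B against the WT mean. In 10 of the 14 (71.4%) both KO libraries lay above both WT libraries, an arrangement found in 28.1% of all genes tested, and in 0 both lay below, against 28.2% of all. Without a given library the median ran from 0.15 to 0.20. The 12 tested V-ATPase subunits and assembly factors outside the set mostly lay on the other side of 0. Of these 4 were above 0 and 8 below, with a median of -0.10, and both KO libraries were above WT in 2 (16.7%) and below in 6 (50%). Among them Atp6v0a2, another form of the large channel subunit, differed by -0.34 (adjusted p = 0.200). Atp6v1g2, a stalk subunit, differed by -0.35 (adjusted p = 0.0541). Dmxl2 went the other way, by 0.74 (adjusted p = 0.0682), the largest difference above 0 among the 12. These genes were named after their values were seen. The counts for the 14 thus describe the chosen genes, not V-ATPase genes as a class. The genes were chosen with earlier results of these data known, so the shares of all genes beside them are no test.

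In the V1 sector, Atp6v1e1, which encodes a subunit of the stalk that joins the sectors, had KO values of 11.77 and 11.68 and WT values of 11.39 and 11.39. The WT libraries were nearly equal and both KO libraries were higher, by 0.34 (SE 0.0821, adjusted p = 0.0591) with a 95% interval of 0.14 to 0.54, just short of the threshold. Atp6v1a, the catalytic subunit that binds ATP, had KO values of 11.74 and 11.64 and WT values of 11.25 and 11.54. WT 1 was the lowest library, and the difference was 0.30 (SE 0.116, adjusted p = 0.181). Atp6v1b2, the partner of the catalytic subunit, and Atp6v1h, a regulatory subunit, also had both KO libraries on top, with differences of 0.18 and 0.19 (adjusted p = 0.220 and 0.255). For Atp6v1d, a subunit of the central rotor, the difference was 0.17 and the groups overlapped, with KO A above KO B by 0.31. The smallest differences in this sector were 0.030 for Atp6v1f and -0.013 for Atp6v1c1, with overlapping groups.

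In the V0 sector the largest difference was that of Atp6v0a1, one of the forms of the large proton-channel subunit. It had KO values of 11.23 and 11.54 and WT values of 11.05 and 10.91. KO B was the highest library, and the difference was 0.41 (SE 0.124, adjusted p = 0.104). Another form of the same subunit, Tcirg1, went the other way, at KO values of 12.43 and 12.22 and WT values of 12.53 and 12.81. Both KO libraries were below both WT libraries there, with a difference of -0.34 (SE 0.122, adjusted p = 0.148). Atp6v0c, the proteolipid that makes up most of the proton-carrying ring, differed by 0.26 (SE 0.0961, adjusted p = 0.165), with both KO libraries above WT. Reads of Atp6v0c can be shared with its pseudogene copies, so this value is uncertain. Atp6v0b, a second ring protein, differed by 0.14, and Atp6v0e, a small membrane subunit, by -0.055 with overlapping groups.

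Atp6v0d1, the widely used form of the subunit that couples the sectors, had KO values of 11.36 and 11.35 and WT values of 11.27 and 11.19. Its KO libraries were nearly equal and just above both WT libraries, a difference of 0.12 (SE 0.0831, adjusted p = 0.417). The accessory proteins Atp6ap1 and Atp6ap2, which help assemble the pump, differed by 0.14 and 0.18 (adjusted p = 0.323 and 0.263), also with both KO libraries on top.

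**Figure D2:**
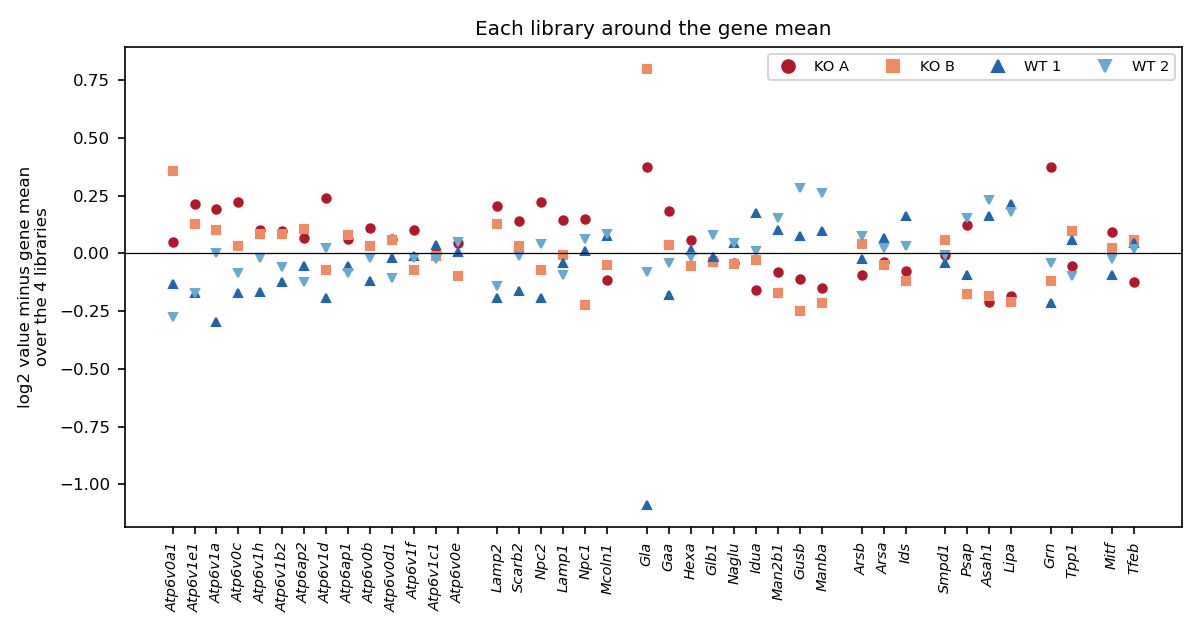
Each library's log2 value minus the gene's mean over the 4 libraries, by functional group (KO A circles, KO B squares, WT 1 and WT 2 triangles). KO symbols lie above WT symbols in 10 of 14 V-ATPase genes and below them in 10 of the 16 glycosidases, sulfatases and lipid hydrolases, and WT 1 lies far below the rest for Gla.

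Of the 6 membrane and lipid export genes 0 passed, 4 were above 0 and 2 below, with a median of 0.14. At an unadjusted p under 0.05, 1 (16.7%), Lamp2, was higher, against 14.2% of all genes tested. The KO libraries differed over the 6 genes: the median was 0.22 for KO A and 0.033 for KO B against the WT mean. Lamp2, a main membrane glycoprotein that also serves chaperone-mediated autophagy, had KO values of 12.50 and 12.42 and WT values of 12.10 and 12.16. Both KO libraries were above both WT libraries, and the difference of 0.33 (SE 0.0800, adjusted p = 0.0590) had a 95% interval of 0.14 to 0.52. Lamp1, the other main membrane glycoprotein, had KO values of 13.005 and 12.85 and WT values of 12.82 and 12.77. The groups did not overlap, but the difference of 0.14 (SE 0.0871, adjusted p = 0.386) was less than the 0.15 between KO A and KO B.

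Mcoln1, the calcium channel through which lysosomes signal to TFEB, lay on the other side of 0, at KO values of 10.84 and 10.91 and WT values of 11.03 and 11.04. Both KO libraries were below both WT libraries, and the difference was -0.16 (SE 0.0836, adjusted p = 0.288). Scarb2, which carries glucocerebrosidase to the lysosome, differed by 0.17 with both KO libraries above WT. The cholesterol exporters Npc1 and Npc2 differed by -0.074 and 0.15 with overlapping groups. In both, KO A was above KO B, by 0.37 for Npc1 and by 0.30 for Npc2.

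Lipid hydrolases held the only calls. Lipa (ENSMUSG00000024781, chromosome 19), the acid lipase that frees cholesterol and fatty acids from lipoprotein cargo, had KO values of 11.59 and 11.56 and WT values of 11.98 and 11.95. Libraries of a group lay within 0.032 of each other, and Lipa fell by 0.40 (SE 0.0782, adjusted p = 0.0389). Mean normalized counts were 2546 in KO, 1.38-fold lower than the 3501 in WT. Asah1 (ENSMUSG00000031591, chromosome 8), the acid ceramidase, had KO values of 12.29 and 12.31 and WT values of 12.66 and 12.73. It fell by 0.39 (SE 0.0784, adjusted p = 0.0389), and its mean of 4535 normalized counts in KO was 1.35-fold lower than the 6118 in WT.

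Neither call stood with 3 libraries, whichever of KO A, KO B, WT 1 or WT 2 was left out. The differences themselves stayed between -0.41 and -0.38 for Lipa and between -0.43 and -0.36 for Asah1. Each of these fits leaves a lone library in a group, which is assumed to vary like the other group. Calls over all genes were almost wholly lost without KO A or without KO B, but not without WT 1 or WT 2.

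Psap, the precursor of the saposins that present lipids to hydrolases, had KO values of 16.60 and 16.31 and WT values of 16.39 and 16.63. The highest and the lowest libraries were WT 2 and KO B, the groups overlapped, and the difference of -0.057 (SE 0.139, adjusted p = 0.848) was less than the spread within either group. Smpd1, the acid sphingomyelinase, differed by 0.049 (adjusted p = 0.771).

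Of 9 glycosidases 0 passed, 3 were above 0 and 6 below, and the median was -0.087. At an unadjusted p under 0.05, 1 (11.1%) was higher and 3 (33.3%) lower, against 14.2% and 10.5% of all genes tested. Manba, the beta-mannosidase, had KO values of 10.65 and 10.59 and WT values of 10.90 and 11.07. Both KO libraries were below both WT libraries, with a difference of -0.36 (SE 0.0962, adjusted p = 0.0765). Gusb, the beta-glucuronidase, had KO values of 12.16 and 12.02 and WT values of 12.35 and 12.56, and the difference was -0.36 (SE 0.103, adjusted p = 0.0920). Man2b1, the alpha-mannosidase, had KO values of 13.90 and 13.81 and WT values of 14.08 and 14.14. Its difference of -0.25 (SE 0.0812, adjusted p = 0.121) passed with quantile normalization, at -0.34 (adjusted p = 0.0466). For each of these 3 genes the 95% interval of the difference excluded 0 before adjustment.

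Smaller differences below 0 were found for Idua, Naglu and Glb1. Idua, which cuts dermatan and heparan sulfate, had KO values of 9.93 and 10.06 and WT values of 10.27 and 10.10. KO B and WT 2 lay next to each other, and the difference was -0.19 (SE 0.104, adjusted p = 0.319). Naglu, which cuts heparan sulfate, differed by -0.087 and Glb1, the beta-galactosidase, by -0.068, both with KO libraries below WT. Reads of Glb1 can be shared with Tmppe, which overlaps it on the same strand. Hexa, a subunit of beta-hexosaminidase, differed by 0.0040, with a sign that turned under quantile normalization and under centring. Gaa, which breaks down glycogen, lay above 0 at 0.22, with both KO libraries above both WT libraries.

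Gla (ENSMUSG00000031266, chromosome X), the alpha-galactosidase that is deficient in Fabry disease, had the largest difference of all 40 genes. It had KO values of 10.41 and 10.84 and WT values of 8.95 and 9.95. KO libraries lay above WT libraries, but the WT libraries differed by 1.01, so that the difference of 1.17 (SE 0.316) had a 95% interval of 0.41 to 1.93 and missed the threshold (adjusted p = 0.0790). In normalized counts the means were 1112 in KO and 322 in WT, 3.45-fold apart. Without WT 1 the difference was 0.67, and without WT 2 it was 1.68. Each of these 2 fits has a lone WT library, so the spread between the WT libraries does not enter it. Immediate early genes had the same order of libraries by summed level: 13 of them held 0.0529% and 0.159% of counts in WT 1 and WT 2, and 0.405% and 0.481% in KO A and KO B. The sum of 9 red cell markers followed the same order, with 0.00958% and 0.0544% in WT and 0.123% and 0.187% in KO. Whether these genes have a part in the Gla difference was not tested.

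**Figure D3:**
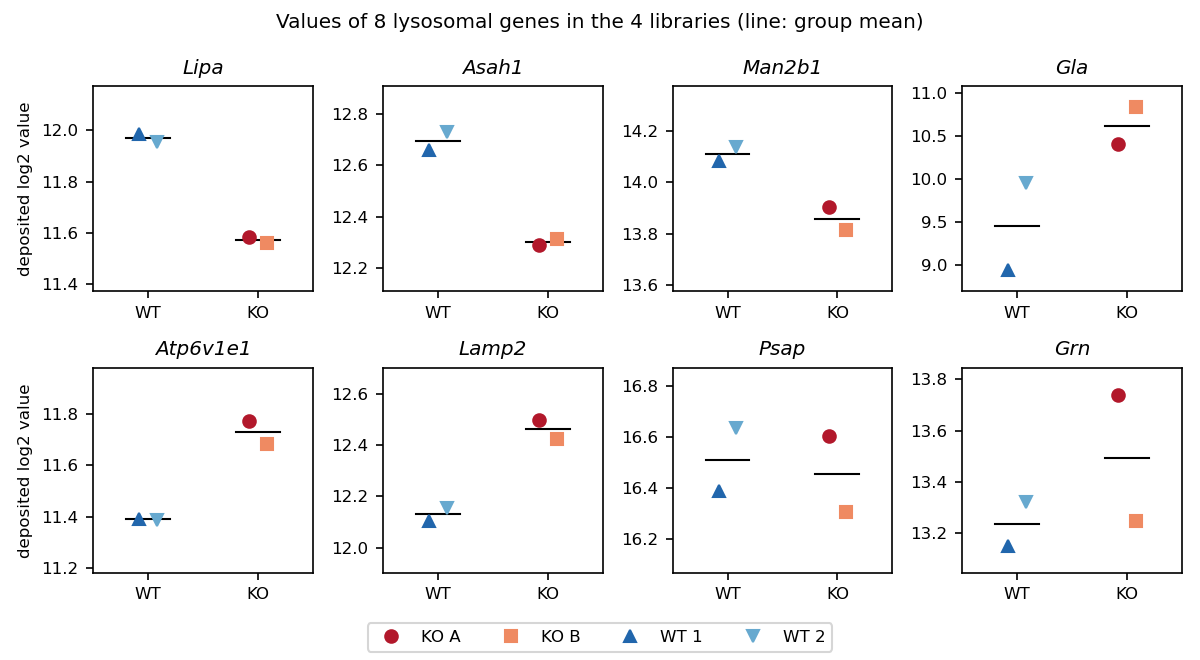
Deposited log2 values of 8 lysosomal genes in each library, with a line at the group mean; axes differ between genes. Lipa, Asah1 and Man2b1 are lower in both KO libraries, Gla, Atp6v1e1 and Lamp2 are above WT in both, and the groups of Psap and Grn overlap.

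The 3 sulfatases lay below 0. Ids, which starts the breakdown of dermatan and heparan sulfate, had KO values of 10.85 and 10.81 and WT values of 11.09 and 10.96. Both KO libraries were below both WT libraries, with a difference of -0.20 (SE 0.0902, adjusted p = 0.243). Arsa, which acts on sulfatide, differed by -0.089 and Arsb, which acts on dermatan sulfate, by -0.053 (adjusted p = 0.571 and 0.764). Over the 16 glycosidases, sulfatases and lipid hydrolases, both KO libraries were below both WT libraries in 10 (62.5%) and above in 3, against 28.2% and 28.1% of all genes. The 29 other lysosomal hydrolases and cofactors tested had both KO libraries below WT in 7 (24.1%) and above in 8 (27.6%), near the shares of all genes, with 12 above 0 and 17 below. For the 16, the median difference was -0.088, with -0.10 for KO A and -0.11 for KO B against the WT mean. The 16 too were chosen with earlier results of these data known, so their shares do not test a departure from all genes.

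Grn, which encodes progranulin, a lysosomal cofactor, had KO values of 13.74 and 13.25 and WT values of 13.15 and 13.32. KO A was above the other 3 libraries, which lay within 0.17 of each other, and the difference was 0.26 (SE 0.163, adjusted p = 0.389). Plasmacytoid dendritic cell markers, as a sum over 8 genes, were also highest in KO A, at 0.113% of counts, and between 0.0601% and 0.0810% elsewhere. Sums of monocyte, neutrophil and T cell markers were highest in KO A as well. The part of any of these cells in the Grn value was not tested. Tpp1, a lysosomal peptidase, differed by 0.040 with overlapping groups.

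The regulators did not pass. Tfeb had KO values of 11.25 and 11.43 and WT values of 11.42 and 11.39, and the groups overlapped with a difference of -0.065 (SE 0.0937, adjusted p = 0.718) and a 95% interval of -0.29 to 0.16. Mitf had KO values of 9.81 and 9.74 and WT values of 9.62 and 9.69. Its KO libraries were above both WT libraries by a small margin, a difference of 0.12 (SE 0.0886, adjusted p = 0.468). Tfe3, a close relative of both, had KO values of 11.39 and 11.15 and WT values of 11.44 and 11.13, overlapping groups and a difference of -0.015 (SE 0.137, adjusted p = 0.964). Tfec, the fourth member of the family, lay below the limit on low values, with KO values of 8.95 and 9.12 and WT values of 8.90 and 9.01.

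Other lysosome genes were taken from a list of 113, of which 98 were tested. Of these 3 passed as higher, 2 as lower and 93 did not pass, and their median was -0.030. The share passing was 5.10% of the 98, below the 6.93% of all genes tested. The higher genes were Pld3, Igf2r and Sqstm1. Pld3, a lysosomal nuclease that removes single-stranded nucleic acid, had KO values of 10.30 and 10.44 and WT values of 9.56 and 9.49. It rose by 0.84 (SE 0.0956, adjusted p = 0.0147), 2.78-fold in normalized counts. Igf2r, the receptor that sorts hydrolases tagged with mannose 6-phosphate to lysosomes, had KO values of 11.83 and 11.85 and WT values of 11.12 and 11.18. It rose by 0.69 (SE 0.0807, adjusted p = 0.0147), 1.78-fold in normalized counts. For both, the KO libraries lay within 0.14 of each other and above both WT libraries. Sqstm1, the autophagy receptor p62, had KO values of 12.62 and 12.76 and WT values of 12.20 and 12.33, and rose by 0.42 (SE 0.0923, adjusted p = 0.0475).

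Rogdi and Slc38a9 were lower. Rogdi, part of the complex that reassembles the V-ATPase sectors, had KO values of 11.32 and 11.31 and WT values of 12.16 and 11.95. It fell by 0.74 (SE 0.0980, adjusted p = 0.0191), 1.84-fold in normalized counts. Slc38a9, the lysosomal arginine sensor of the mTORC1 pathway, had KO values of 11.41 and 11.43 and WT values of 11.85 and 11.76, and fell by 0.38 (SE 0.0822, adjusted p = 0.0462). Sqstm1 and Slc38a9 lay close to the threshold. Sqstm1 missed it in 5 of the 7 alternatives on 4 libraries, with adjusted p values over the 7 of 0.0407 to 0.0739, and Slc38a9 in 3, with 0.0406 to 0.0508. The higher genes then numbered 2 in those 5 alternatives. Calls of this list were lost without KO A or without KO B, where calls over all genes were almost wholly lost too.

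Markers of several cell types differed between the same libraries. Of 12 conventional dendritic cell markers 9 passed as lower, and their summed share of counts was 0.588% and 0.563% in the KO libraries and 0.873% and 0.875% in the WT libraries. Of 13 macrophage markers tested 4 passed as higher, with sums of 0.0466% and 0.0734% in KO and 0.0372% and 0.0295% in WT; Marco and Timd4 lay below the limit on low values. Monocyte markers passed as higher in 5 of 12, with sums of 0.524% and 0.506% in KO and 0.369% and 0.309% in WT. In NK cell markers 7 of 8 passed as higher, in red cell markers 4 of 9 and in T cell markers 2 of 5 tested. Neutrophil markers passed as higher in 2 of 10, Csf3r and Cxcr2. The sum over the 10 set WT 2 apart, with 0.278% of counts there and between 0.744% and 0.808% in the other 3 libraries. Csf3r did not follow that sum, at 13.33 and 14.16 in KO and 12.47 and 12.65 in WT. None of these lists had a marker at 0 in all libraries. The part of these cells in the lysosomal differences was not tested.

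**Figure D4:**
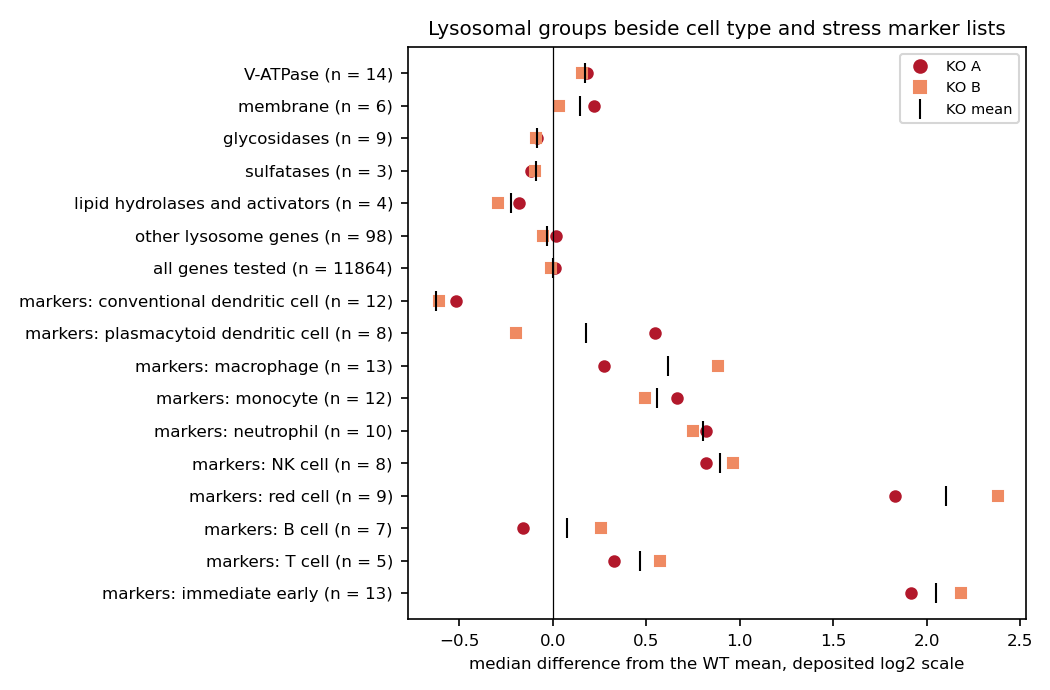
Median difference from the WT mean of KO A (circles), KO B (squares) and their mean (bars), for groups of lysosomal genes, all genes tested and marker lists, on the deposited log2 scale. Lysosomal groups lie between -0.29 and 0.22, near all genes tested, while conventional dendritic cell markers lie at or below -0.52 and red cell and immediate early genes at or above 1.83.

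Conventional dendritic cell markers were detected in all 4 libraries, as were those of the other cell types named here, so their presence does not by itself show the identity of the sorted cells. Libraries also differed in Y-linked RNA, as given above, and 5 of the lysosomal genes lie on the X chromosome: Gla, Lamp2, Atp6ap1, Atp6ap2 and Ids. Between KO A and KO B the median difference of these 5 was -0.018, and apart from Gla, which was 0.43 lower in KO A, each differed by at most 0.075. That compares single libraries, and whether sex has a part in any difference was not tested.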

How the data were processed

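The deposited table holds log2 values, variance-stabilized by its name, that the authors had scaled between libraries. Build GRCm39, DESeq2 and Salmon 1.10.1 are named, without roles, in the submitters' processing notes; how genes were annotated or filtered was not given in the sources used here. RNA came from sorted splenic dendritic cells through a stranded total RNA kit for low input, per the labels' protocols.

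Symbols came from GENCODE M21 (17289 of 17300 identifiers matched), used for names only. The test took the 11864 genes whose mean exceeded the table minimum by 1 log2 unit or more. Groups were compared in limma 3.58.1 (R 4.3.3), KO minus WT, with an intensity trend, two-sided, Benjamini-Hochberg adjusted over all genes tested, at 6.48 total degrees of freedom; the fit was tested on simulated data. Normalized counts were obtained by inverting the transform from its lowest value. In low genes 49.9% to 61.3% of them were whole to within 0.1 of a step fitted per library, so single reads were not recovered and the depth in reads is unknown. Low values are compressed, so log2 differences understate folds.

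Genes described with all library values were those past the threshold, the 5 others with the largest difference in each direction, and those fixed for their role (Atp6v0d1, Lamp1, Lamp2, Mcoln1, Psap, Grn, Tfeb, Mitf, Tcirg1, Tfe3 and Tfec); of the other lysosome genes, up to 5 past the threshold per direction. The members and lists were chosen with earlier results of these data known. Alternatives were another filter or none, other scalings, other moderation, log2 of the normalized count plus 1, and leaving out each library.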

Additional observations from a re-analysis of the deposited data

How the results depend on the processing

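Lipa and Asah1 passed under all 7 alternatives that kept the 4 libraries, joined by Man2b1 under quantile normalization. Neither passed in the fits on 3 libraries, where a lone library is assumed to vary like the other group. Calls over all genes were almost wholly lost without KO A or without KO B, but not without WT 1 or WT 2. Of the other lysosome genes 1 was lower without a filter, without a trend and with log2 of the count plus 1. With robust moderation 5 were higher. With the filter at 2 units, where Pld3 was not tested, 4 were higher and 3 lower. The median over the 40 genes ran from 0.012 without KO A to 0.11 without KO B. The median over glycosidases, sulfatases and lipid hydrolases was -0.20 with the filter at 2 units. Gla, Glb1, Naglu, Arsa and Smpd1 were not tested there, and the differences of the genes still tested were unchanged. The median was -0.11 with quantile normalization and with centring, and -0.17 with log2 of the count plus 1. Without a library it ran from -0.11 to -0.098. Apart from the filter, the cause of these moves was not tested. Of all calls 67.8% were higher, and 56.5% with quantile normalization.

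With the filter at 2 units Siglece, Gla, Glb1, Naglu, Arsa, Smpd1, Mitf, Pld3 and Atp6v1g2 were among the genes not tested. Siglece stayed lower, at -1.44 to -1.20 without a library. It missed the threshold without KO A and without KO B, as nearly all genes did. Differences near 0 turned sign. Hexa was at -0.044 with quantile normalization, -0.019 with centring and -0.052 to 0.060 without a library. Without a library the ranges were -0.13 to 0.017 for Atp6v0e, -0.042 to 0.016 for Atp6v1c1, -0.056 to 0.11 for Atp6v1f, -0.26 to 0.11 for Npc1, -0.12 to 0.013 for Arsb, -0.21 to 0.093 for Psap, -0.039 to 0.12 for Tpp1, -0.15 to 0.024 for Tfeb and -0.17 to 0.14 for Tfe3.

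No paired analysis was possible because the KO columns carry other replicate numbers than the KO titles.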
